A study of Mus musculus with 16 samples.

Results

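The insulin-like growth factor (IGF) system was examined in sorted mouse astrocytes through 9 genes out of the 39171 features of the expression table. They were taken by name: the ligand genes Igf1 and Igf2, the receptor gene Igf1r, and the binding protein genes Igfbp2 to Igfbp7. In the positive cells of the Il33 reporter, Igfbp5 and Igfbp7 transcripts were several-fold lower than in negative cells of the same region, in thalamus and spinal cord alike. Igf2 was lower in positive thalamus cells, and Igfbp2 was higher in positive spinal cord cells. Igfbp4 differed by region in both gates, and neither gate difference of it passed the test.

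IGF1 and IGF2 are secreted growth factors that act on cells through the IGF1 receptor, a tyrosine kinase of the insulin receptor family. The IGF binding proteins hold the ligands in the extracellular space, where they can keep them from the receptor or store them, and proteases such as HTRA1 can release them. IGFBP7 is a related protein that binds IGFs only weakly and insulin more readily. In the nervous system IGFs are known for supporting the growth and survival of neurons and the formation of myelin.

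The cells came from 4 C57BL/6 mice at postnatal day 15 heterozygous for IL-33-mCherry, a reporter of the cytokine gene Il33, and positive for Aldh1l1-GFP, which marks astrocytes through the promoter of a folate enzyme gene. From each mouse, cells of the thalamus and of the spinal cord were sorted by the mCherry signal, which gave 4 groups of 4 libraries: thalamus negative, thalamus positive, spinal cord negative and spinal cord positive. All 4 groups carried both reporters, and the sources used here do not say how the GFP signal was used in sorting. Values are FPKM, fragment counts scaled to transcript length and library size, so that levels of different genes can be set side by side.

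The libraries were checked against marker genes of 10 cell types. Astrocyte markers (8 genes) summed to 3490.6 to 6953 FPKM and were the most abundant list in each group. Their sums overlapped between the thalamus gates, at 3630 to 4447 FPKM in negative and 3490.6 to 4217 FPKM in positive libraries. In the spinal cord the sums were higher in positive libraries, at 6562 to 6953 FPKM against 4912 to 6347 FPKM in negative ones. Single genes of the list went opposite ways, without overlap of the gates. Gfap was lower in positive libraries, at 3.59 to 5.80 FPKM against 32.4 to 112 FPKM in the thalamus. Its spinal cord values were 45.3 to 51.2 FPKM against 97.8 to 192 FPKM. Gja1 was higher in positive libraries, at 346 to 456 FPKM against 211 to 344 FPKM in the thalamus. In the spinal cord Gja1 was at 574 to 701 FPKM against 256 to 310 FPKM. Oligodendrocyte markers (8 genes) summed to 428 to 906 FPKM in negative and 73.7 to 108 FPKM in positive thalamus libraries, and to 3202 to 3399 FPKM and 152 to 164 FPKM in those of the spinal cord. Ependymal markers (6 genes) lay at 181 to 298 FPKM against 2.72 to 4.39 FPKM in the thalamus, and at 52.7 to 71.8 FPKM against 2.78 to 4.59 FPKM in the spinal cord. Mural cell markers (6 genes) lay at 73.9 to 111 FPKM against 8.92 to 13.3 FPKM, and at 42.3 to 105.02 FPKM against 10.7 to 14.0 FPKM. Neuron markers (6 genes) lay at 22.6 to 79.8 FPKM against 9.19 to 14.0 FPKM, and at 34.04 to 49.7 FPKM against 18.6 to 28.3 FPKM. Oligodendrocyte precursor sums (6 genes) overlapped between the thalamus gates, at 218 to 315 FPKM and 144 to 233 FPKM. In the spinal cord they lay at 443 to 496 FPKM against 220.2 to 268 FPKM. Of the thalamus sums Olig1 alone held 116 to 226 FPKM in negative and 77.9 to 129 FPKM in positive libraries. Olig1, Olig2 and Cspg4 overlapped there. Sox10 (11.5 to 21.7 against 0.567 to 1.17 FPKM), Gpr17 (7.27 to 14.8 against 0.0748 to 0.411 FPKM) and Pdgfra were lower in positive thalamus libraries without overlap. All 8 oligodendrocyte and all 6 ependymal markers were called lower in positive cells of both regions (limma, adjusted p under 0.05). Mural markers had 4 of 6 called lower for the thalamus and 3 of 6 for the spinal cord. In the same region order precursor markers had 3 and 3 of 6, endothelial ones 1 and 4 of 6, and neuron ones 2 and 0 of 5. Over all features 13.6% and 10.5% were called lower. Dnah11, Tmem212, Ccdc153 and Mag stayed under 1 FPKM in every positive library. The filter of 1 FPKM in 4 libraries, passed through negative ones alone, thus favoured a lower call of them. Apart from the astrocyte sums and, in the thalamus, the precursor sum, negative libraries had a larger sum of each of these lists than positive ones. Endothelial markers were also higher in negative libraries. The part of any of these lists in the gate differences below was not tested. In such pooled cells, fewer cells of a type and less RNA per cell cannot be told apart. Summed over all features, libraries held 984986 to 2344483 FPKM, and their sequencing depth is unknown. Mitochondrial transcripts made up 43.7% to 73.9% of these sums. Their share was highest for the negative libraries of mouse 1, at 73.9% (thalamus) and 71.8% (spinal cord). The same libraries had the fewest features at 1 FPKM, 13385 and 13260. The part of this in the calls that change without mouse 1 or its negative libraries was not tested. The transcript of Il33 itself was at 18.6 ± 6.01 and 27.4 ± 3.41 FPKM in negative and positive thalamus cells and at 24.6 ± 7.93 and 27.9 ± 3.49 FPKM in negative and positive spinal cord cells (SD, n = 4). It was thus found in the negative gate too.

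**Figure D1:**
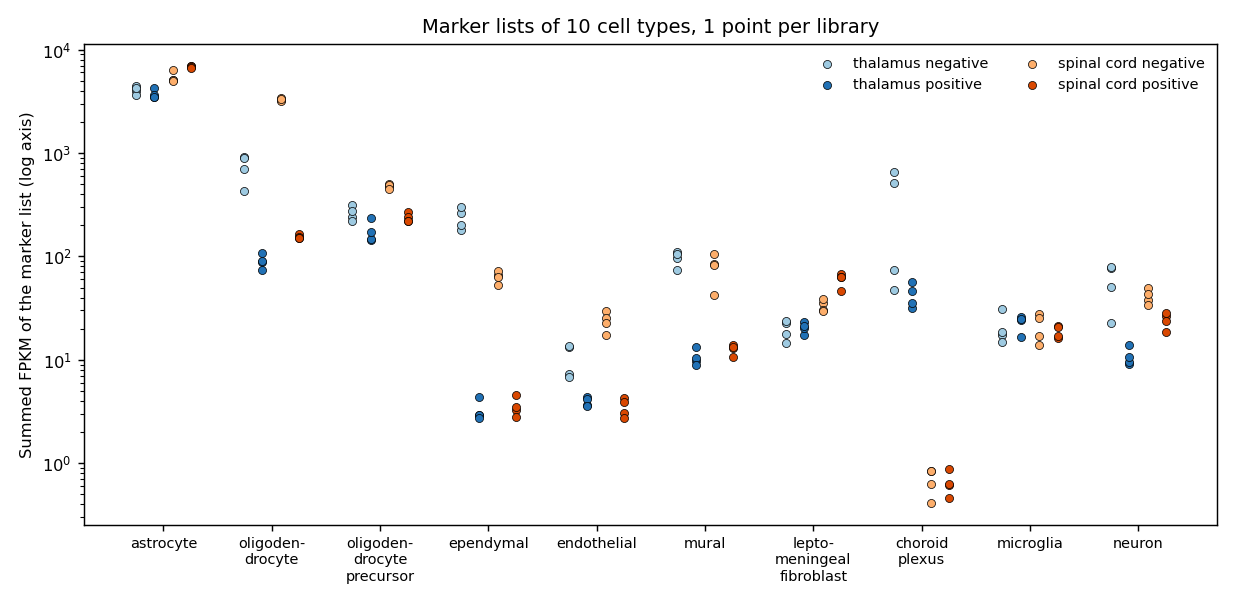
Summed FPKM of the marker genes of 10 cell types, on a log axis, with 1 point for each library and colours for the 4 groups. Oligodendrocyte, ependymal and mural cell markers lie higher in all negative libraries than in the positive ones of the same region, and choroid plexus markers lie below 1 FPKM in all spinal cord libraries.

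Of the 9 genes, 7 reached 1 FPKM in at least 4 libraries and were tested, while Igfbp3 and Igfbp6 did not. Tests were made with limma over all 16340 features that passed this filter, and a gene is called when its adjusted p is under 0.05. Fold changes are on the log2(FPKM + 1) scale, which understates the change of weakly expressed genes. Of the 7 genes, 4 were called in the thalamus, where 25.2% of all features were called. All 4 were lower in positive cells and 0 higher, against 13.6% of features lower and 11.6% higher. Igf1, 1 of these 4, passed the filter through 3 negative thalamus libraries and 1 positive spinal cord library. The filter thus favoured a lower value of Igf1 in positive thalamus cells, and its place in this count carries no weight. The spinal cord also had 4 of 7 called, against 19.6% of all features. There 3 were lower and 1 higher, against 10.5% of features lower and 9.04% higher. The ranges of the 2 gates did not overlap for 3 of the 7 genes in the thalamus and for 4 of 7 in the spinal cord, against 25.8% and 27.9% of all features. The median log2 fold change of the 7 genes was -0.93 for the thalamus, which is the value of Igf1 itself, and -0.61 for the spinal cord. That of all features was 0.06 and 0.09. These 9 genes were picked with earlier results of the same libraries known, so the shares only describe them.

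Igf2, the fetal growth factor of the pair, lies on chromosome 7 (GRCm38, 142650766 to 142666816, minus strand). It was at 49.3, 30.9, 36.5 and 27.5 FPKM in the negative thalamus libraries of mice 1 to 4. In the positive thalamus libraries it was at 2.95, 1.17, 3.78 and 3.31 FPKM, so that each negative library was above each positive one. The mean of 36.05 ± 9.60 FPKM compared with 2.80 ± 1.14 FPKM in positive cells (SD, n = 4), which is 12.9-fold lower in positive cells. Its log2 fold change was -3.31 ± 0.46 (SE), with an adjusted p of 1.3e-04.

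Spinal cord Igf2 was at 3.00, 5.62, 12.5 and 22.6 FPKM in the negative libraries of mice 1 to 4 and at 1.58, 2.64, 3.53 and 4.55 FPKM in the positive ones. All 4 mice had less in their positive library, but the ranges overlapped. The log2 fold change was -1.29 ± 0.46 (SE) and missed the threshold, with an adjusted p of 0.0616. With the mouse as a block the adjusted p was 0.0487, and without the negative library of mouse 1 it was 0.0107. Negative thalamus libraries held 3.30-fold more Igf2 than negative spinal cord libraries (log2 fold change for spinal cord against thalamus -1.92 ± 0.46, SE; adjusted p = 0.0144). That call was lost when only these 2 groups were fitted (adjusted p = 0.144) and without mouse 1, 2 or 3 (0.0983, 0.0923 and 0.0674). In positive libraries the regions had 3.08 ± 1.27 and 2.80 ± 1.14 FPKM (SD, n = 4), and the 95% interval of their log2 fold change ran from -0.87 to 1.08.

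Igf2 is known as a product of the choroid plexus and of the meninges. Choroid plexus markers (5 genes) summed to 511, 648, 47.4 and 73.9 FPKM in the negative thalamus libraries of mice 1 to 4 and to 31.9 to 56.2 FPKM in the positive ones. Of these sums Otx2 alone made up 34.4 to 50.4 FPKM in negative and 31.1 to 40.8 FPKM in positive libraries, while Ttr, the transthyretin gene, ran from 0.397 to 599 FPKM in negative and from 0.129 to 14.1 FPKM in positive ones. The same list stayed in the spinal cord at 0.415 to 0.889 FPKM over both gates, with Folr1 and Clic6 listed at 0 in 3 of 4 negative libraries. The part of choroid plexus cells in the Igf2 difference was not tested. Leptomeningeal fibroblast markers (6 genes) summed to 14.7 to 24.0 FPKM in negative and 17.2 to 23.1 FPKM in positive thalamus libraries. Of these sums Col1a2 alone made up 8.67 to 16.3 FPKM in negative and 14.4 to 20.5 FPKM in positive libraries. The other genes of the list had lower means in positive thalamus libraries, with overlapping ranges. The summed list was higher in positive than in negative spinal cord libraries, at 45.9 to 67.6 FPKM against 29.9 to 38.7 FPKM. Over the mice, the spinal cord negative library of mouse 4 had the most Igf2 of its group and the most mural marker transcript, 105.02 FPKM. That of mouse 1 had the least of both, 3.00 FPKM and 42.3 FPKM. Mice 2 and 3 of that group, at 5.62 and 12.5 FPKM of Igf2, had 84.7 and 82.3 FPKM of mural markers. The negative thalamus libraries went the other way. There mouse 1 had the most Igf2, 49.3 FPKM, and the least mural transcript, 73.9 FPKM, while mouse 4 had the least Igf2, 27.5 FPKM, beside 106 FPKM. The part of mural cells in Igf2 was not tested.

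Igf1, which in the brain is made by microglia and neurons among others, was low in all groups, and passed the filter through 3 negative thalamus libraries and 1 positive spinal cord library. It lies on chromosome 10 (87858265 to 87937042, plus strand). It ranged from 0.147 to 2.95 FPKM in negative and from 0.0639 to 0.303 FPKM in positive thalamus libraries, and from 0.131 to 0.699 FPKM and 0.236 to 1.21 FPKM in those of the spinal cord. Igf1 was lower in positive than in negative thalamus cells of 4 of 4 mice, with a log2 fold change of -0.93 ± 0.30 (SE) and an adjusted p of 0.0342, but the negative library of mouse 1, at 0.147 FPKM, lay within the positive range. The call was lost in 11 of 26 alternatives, with an adjusted p of up to 0.164. These were the fit of the thalamus groups alone, mouse 2, 3 or 4 left out, and the loss of any positive thalamus library or of the negative one of mouse 2, 3 or 4. With a pseudocount of 0.1 the log2 fold change was -2.16, with an adjusted p of 0.041. The antisense gene Igf1os overlaps Igf1 and had means of 0.653 ± 0.293 FPKM in negative thalamus cells and 2.48 ± 1.32 FPKM in positive ones (SD, n = 4). The sources used here do not say whether strand was used in counting, so Igf1 is uncertain. The spinal cord difference of Igf1 was 0.24 ± 0.30 (SE), with an adjusted p of 0.629. Microglia markers (6 genes) ran from 14.0 to 30.7 FPKM over the 16 libraries with overlapping ranges in all 4 groups, and the complement gene C1qa was listed at 0 in all 4 negative spinal cord libraries.

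**Figure D2:**
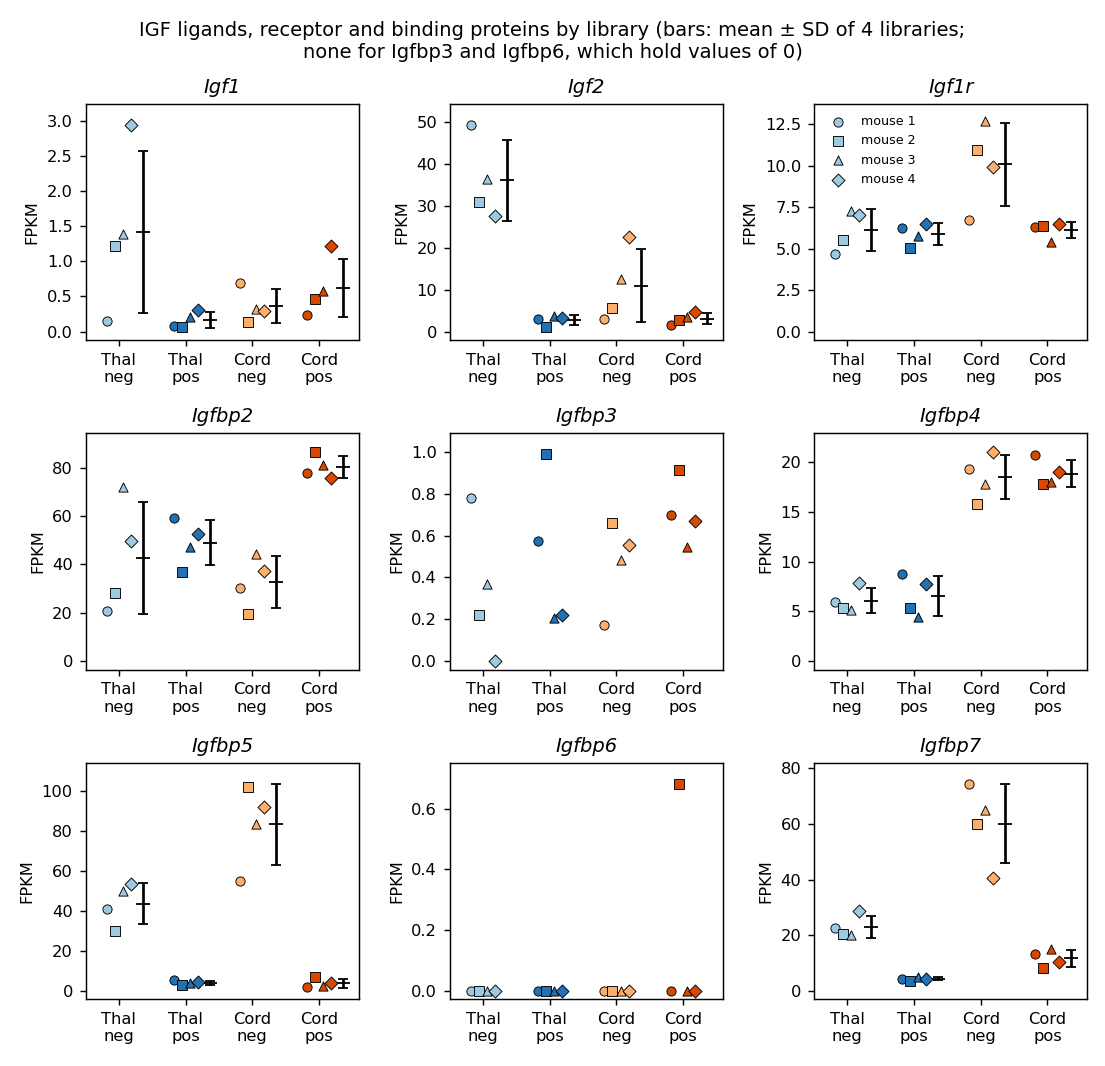
FPKM of each of the 9 genes in every library, by group, with a marker shape for each mouse; bars give the mean and SD of 4 libraries, and Igfbp3 and Igfbp6 have none because they hold values of 0. Igf2, Igfbp5 and Igfbp7 lie lower in positive thalamus libraries without overlap, Igfbp2 stands highest in positive spinal cord libraries, and Igfbp4 separates the regions.

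The receptor gene Igf1r varied least among the 7 tested genes between the gates of the thalamus. It lies on chromosome 7 (67952827 to 68233668, plus strand). Its means were 6.12 ± 1.25 FPKM for negative and 5.88 ± 0.638 FPKM for positive thalamus cells (SD, n = 4), and the 95% interval of the log2 fold change ran from -0.44 to 0.37. Its spinal cord values were 6.75, 10.95, 12.7 and 9.91 FPKM in the negative libraries of mice 1 to 4 and 6.27, 6.36, 5.42 and 6.51 FPKM in the positive ones. All negative libraries were above all positive ones, with a log2 fold change of -0.61 ± 0.19 (SE) and an adjusted p of 0.0358. This call was fragile. It was lost in 13 of 27 alternatives, among them the fit of the spinal cord groups alone (adjusted p = 0.0658) and the scaling to a common sum outside the mitochondrial genome (0.0792). It was also lost without mouse 2, 3 or 4, without any positive spinal cord library, without the negative one of mouse 2, 3 or 4, and without the positive thalamus library of mouse 3, with adjusted p from 0.0507 to 0.247. Between regions, negative libraries differed by 0.62 ± 0.19 (SE) on the log2 scale, higher in the spinal cord (adjusted p = 0.0504). Leaving out the negative cord library of mouse 1 gave 0.00975. The negative spinal cord group had the highest mean, and the other 3 groups had overlapping ranges between 4.66 and 7.27 FPKM.

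Igfbp5, the binding protein that also attaches to the extracellular matrix, had the largest gate difference of the 7 genes in the spinal cord. There it was at 55.0, 101.9, 83.5 and 92.0 FPKM in the negative libraries of mice 1 to 4 and at 1.72, 6.64, 2.44 and 3.71 FPKM in the positive ones. In the thalamus the negative libraries had 40.9, 29.97, 49.7 and 53.2 FPKM and the positive ones 5.31, 2.85, 3.88 and 4.16 FPKM. Each negative library of a region was thus above each positive one of that region. The means were 83.1 ± 20.2 against 3.63 ± 2.17 FPKM in the spinal cord and 43.5 ± 10.4 against 4.05 ± 1.01 FPKM in the thalamus (SD, n = 4), 22.9-fold and 10.7-fold lower in positive cells. The log2 fold changes were -4.26 ± 0.30 (SE; adjusted p = 1.9e-07) and -3.13 ± 0.30 (SE; adjusted p = 4.7e-06). Igfbp5 is the only one of the 9 genes among the 444 features in the authors' deposited table of positive against negative cells, with a log2 fold change of -4.00 and an adjusted p of 5.4e-41 there.

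Between regions Igfbp5 was higher in negative spinal cord than in negative thalamus libraries without overlap, by 0.92 ± 0.30 (SE) on the log2 scale, with an adjusted p of 0.0717. Leaving out the negative spinal cord library of mouse 1 or the positive one of mouse 2, the adjusted p was 0.0386 and 0.0383. In positive libraries the regions overlapped, with a 95% interval of the log2 fold change from -0.86 to 0.43.

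Igfbp7 followed the same order of gates in both regions and the same order of regions in both gates. In the thalamus it was at 22.4, 20.5, 20.1 and 28.7 FPKM in the negative libraries of mice 1 to 4 and at 4.34, 3.55, 4.90 and 4.25 FPKM in the positive ones. The spinal cord values were 74.6, 59.9, 65.0 and 40.8 FPKM in negative and 13.1, 8.10, 14.9 and 10.4 FPKM in positive libraries. None of the 4 groups overlapped with another. Positive cells had 5.38-fold less in the thalamus (log2 fold change -2.18 ± 0.21, SE; adjusted p = 5.1e-06) and 5.17-fold less in the spinal cord (-2.27 ± 0.21, SE; adjusted p = 2.8e-06). Spinal cord libraries had 2.62-fold more than thalamus libraries in the negative gate (log2 fold change 1.33 ± 0.21, SE; adjusted p = 8.3e-04) and 2.72-fold more in the positive gate (1.24 ± 0.21, SE; adjusted p = 0.00234). All 4 calls held in each of 27 alternatives. Igfbp7 is also a product of blood vessel endothelium, whose markers (6 genes) summed to 6.90 to 13.6 FPKM in negative thalamus cells and 3.58 to 4.33 FPKM in positive ones, and to 17.5 to 29.6 FPKM and 2.76 to 4.29 FPKM in spinal cord cells. The last bases of Polr2b, a gene of RNA polymerase II on the opposite strand, overlap the end of Igfbp7. Polr2b was at 51.0 ± 30.2 and 41.7 ± 7.53 FPKM in negative and positive thalamus cells, and 55.6 ± 15.2 and 43.9 ± 3.32 FPKM in spinal cord cells (SD, n = 4).

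Igfbp2, a binding protein that astrocytes are known to make, moved the other way in the spinal cord. It was at 30.04, 19.4, 44.4 and 37.2 FPKM in the negative libraries of mice 1 to 4 and at 77.6, 86.4, 81.3 and 75.8 FPKM in the positive ones, without overlap. The mean rose 2.45-fold, from 32.8 ± 10.7 to 80.3 ± 4.65 FPKM (SD, n = 4), with a log2 fold change of 1.33 ± 0.33 (SE) and an adjusted p of 0.0106. Without mouse 2 or 4 the adjusted p was 0.0791 and 0.053. In the thalamus the negative libraries spread from 20.8 to 72.1 FPKM and the positive ones from 37.01 to 59.1 FPKM. The 95% interval of the thalamus log2 fold change ran from -0.37 to 1.03 (adjusted p = 0.49), and without mouse 1 the value turned to -0.049. Positive spinal cord libraries were all above positive thalamus libraries, by 0.72 ± 0.33 (SE) on the log2 scale, but the adjusted p was 0.259. It was 0.0088 when only those 2 groups were fitted.

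Igfbp2 and Igfbp5 lie next to each other on chromosome 1 (GRCm38; Igfbp2 at 72824503 to 72852474 on the plus strand, Igfbp5 at 72857932 to 72874884 on the minus strand). Their 3′ ends face each other across 5.46 kilobases, and their transcripts differed between the gates of the spinal cord in opposite directions. Igfbp7 lies on chromosome 5 (77349240 to 77408041, minus strand). The promoters of these 3 genes, from 250 bases before to 50 bases after the RefSeq start (GRCm38.p6), are shown with motif letters in capitals. They were chosen because Igfbp5 and Igfbp7 were lower in positive cells of both regions, while Igfbp2 was higher in those of the spinal cord only. The promoter windows span chr1:72824230-72824529 on the plus strand for Igfbp2 (the outer of 2 listed starts), chr1:72874816-72875115 on the minus strand for Igfbp5 and chr5:77407996-77408295 on the minus strand for Igfbp7.
Igfbp2 promoter: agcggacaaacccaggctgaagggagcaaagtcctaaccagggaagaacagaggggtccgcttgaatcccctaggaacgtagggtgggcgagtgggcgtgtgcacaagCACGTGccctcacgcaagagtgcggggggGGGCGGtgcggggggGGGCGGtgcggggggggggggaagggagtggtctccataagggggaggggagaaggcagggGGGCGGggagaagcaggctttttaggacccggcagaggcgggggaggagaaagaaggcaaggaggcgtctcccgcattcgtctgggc
Igfbp5 promoter: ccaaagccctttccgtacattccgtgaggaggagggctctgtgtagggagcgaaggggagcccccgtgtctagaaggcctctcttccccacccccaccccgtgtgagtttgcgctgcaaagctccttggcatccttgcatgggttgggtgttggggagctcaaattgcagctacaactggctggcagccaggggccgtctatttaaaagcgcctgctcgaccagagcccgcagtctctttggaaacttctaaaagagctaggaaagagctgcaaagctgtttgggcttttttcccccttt
Igfbp7 promoter: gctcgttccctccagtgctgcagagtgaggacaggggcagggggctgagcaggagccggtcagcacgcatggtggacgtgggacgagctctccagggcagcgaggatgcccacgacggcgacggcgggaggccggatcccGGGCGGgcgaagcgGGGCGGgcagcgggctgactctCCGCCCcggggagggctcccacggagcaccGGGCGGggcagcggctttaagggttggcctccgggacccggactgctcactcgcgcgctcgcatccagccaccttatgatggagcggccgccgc
The capitals mark the GC box GGGCGG, which in the Igfbp7 window also reads as CCGCCC on the other strand, and the E-box CACGTG. Both strands were searched for these and for the TATA box TATAAA, the AP-1 motif TGANTCA and the CCAAT box CCAAT, and no matches overlapped.

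The Igfbp2 window held 3 GC boxes, which begin 113, 98 and 37 bases before the start, and 1 E-box. The Igfbp7 window held 4 GC boxes, at 110, 96, 74 and 44 bases before the start, and the Igfbp5 window held none of the 5 motifs. Over all 32851 promoters of this length a GC box was found in 35.7%, the E-box in 7.15%, the TATA box in 13.6%, the AP-1 motif in 7.81% and the CCAAT box in 37.4%. The GC content was 67.0% for Igfbp2, 56.3% for Igfbp5 and 73.3% for Igfbp7, against a median of 52.7%. CpG pairs numbered 18, 10 and 33 in the same order, against a median of 7. The windows of Igfbp5 and Igfbp7, both lower in positive cells, thus differed in composition.

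Igfbp4, a binding protein known to hold back IGF action, followed the region. It lies on chromosome 11 (99041244 to 99054392, plus strand). It was at 5.91, 5.34, 5.18 and 7.87 FPKM in negative and 8.76, 5.38, 4.43 and 7.76 FPKM in positive thalamus libraries of mice 1 to 4. Spinal cord values were 19.3, 15.8, 17.8 and 20.97 FPKM in negative and 20.7, 17.8, 17.95 and 18.9 FPKM in positive libraries. Every spinal cord library was above every thalamus library. Spinal cord cells had 3.04-fold more in the negative gate (log2 fold change 1.47 ± 0.19, SE; adjusted p = 1.5e-04) and 2.86-fold more in the positive gate (1.43 ± 0.19, SE; adjusted p = 3.1e-04), and both calls held in each of 27 alternatives. Between the gates the 95% interval of the log2 fold change ran from -0.34 to 0.49 in the thalamus and from -0.38 to 0.44 in the spinal cord.

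**Figure D3:**
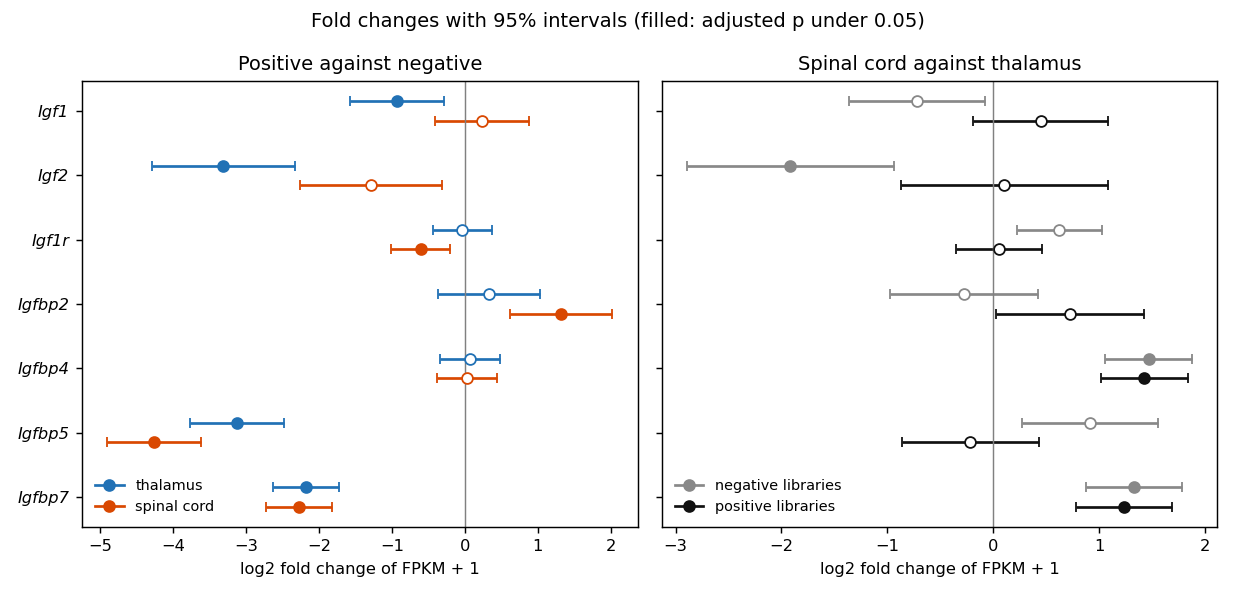
Log2 fold changes of the 7 tested genes with 95% intervals, positive against negative libraries on the left and spinal cord against thalamus on the right; filled points have an adjusted p under 0.05. Igfbp5 and Igfbp7 are lower in positive cells of both regions, and Igfbp4 and Igfbp7 are higher in the spinal cord in both gates.

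Igfbp3, the main IGF carrier of blood, was under 1 FPKM in every library. Its values ran from 0.172 to 0.661 FPKM in negative and from 0.544 to 0.915 FPKM in positive spinal cord libraries, and 4 of 4 mice had more in the positive gate. In the thalamus it was listed at 0 in the negative library of mouse 4, at 0.220 to 0.781 FPKM in the other negative ones and between 0.207 and 0.988 FPKM in positive libraries. Igfbp6, which prefers IGF2 as a ligand, was listed at 0 in 15 of 16 libraries and at 0.681 FPKM in the positive spinal cord library of mouse 2. No test was made for these genes.

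The make-up of the binding protein transcripts differed with the gate. The 6 genes summed to 115 ± 32.6 FPKM in negative thalamus cells and 64.3 ± 12.0 FPKM in positive ones, and to 195 ± 13.4 and 115 ± 4.68 FPKM in spinal cord cells (SD, n = 4). In positive libraries Igfbp2 was the most abundant of them in all 8, with 76.0 ± 1.44% of the sum for the thalamus and 69.6 ± 1.48% for the spinal cord (SD, n = 4). In negative libraries its share was 35.2 ± 10.7% and 16.8 ± 4.95%. Igfbp5 came first in 3 of 4 negative libraries of each region, with Igfbp2 first in the thalamus library of mouse 3 and Igfbp7 first in the spinal cord library of mouse 1. The Igfbp5 share was 38.1 ± 4.98% and 42.5 ± 9.32% in negative thalamus and spinal cord libraries, and 6.25 ± 0.461% and 3.12 ± 1.77% in positive ones. Igfbp2 was 11.1 to 13.0 times as abundant as Igfbp5 in positive thalamus libraries and 13.0 to 45.0 times in positive spinal cord libraries. In the negative libraries that ratio lay between 0.507 and 1.45 in the thalamus and between 0.191 and 0.546 in the spinal cord. These shares describe the levels given above and were not tested.

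**Figure D4:**
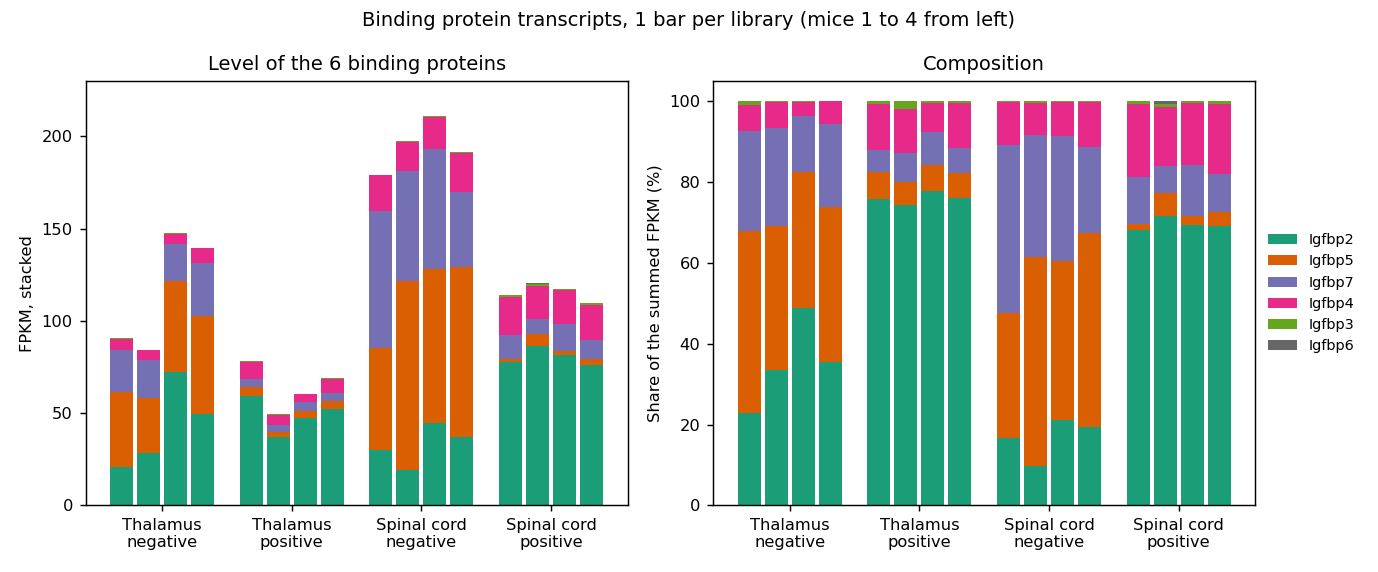
Stacked FPKM (left) and shares in percent (right) of the 6 binding protein genes, with 1 bar for each library and mice 1 to 4 from left to right in each group. Igfbp2 fills 68.2% to 77.8% of each positive bar, while Igfbp5 and Igfbp7 fill most of the spinal cord negative ones.

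Whether the gate difference itself differed between the regions was tested for the 7 genes, and limma called 0 of 7, against 2.56% of all features (1.13% higher and 1.43% lower). At an unadjusted p under 0.05 there were 4 of 7, namely Igf1, Igf2, Igfbp2 and Igfbp5, against 14.7% of all features. Of these, Igf1 passed the filter through 3 negative thalamus libraries and 1 positive spinal cord library, which favoured such a difference. The difference, spinal cord minus thalamus, was 2.02 ± 0.65 (SE) for Igf2 with an adjusted p of 0.131, which was 0.0316 once the negative cord library of mouse 4 was left out. For Igf1 it was 1.17 ± 0.42 (SE) with an adjusted p of 0.196, which was 0.0416 without mouse 1 and 0.0222 without its thalamus negative library alone. For Igfbp5 it was -1.13 ± 0.43 (SE; adjusted p = 0.217) and for Igfbp2 it was 1.00 ± 0.46 (SE; adjusted p = 0.336). The Igfbp7 difference had a 95% interval from -0.74 to 0.54. In the mean of both regions 4 of 7 genes were called, against 38.6% of all features (19.7% higher and 18.9% lower). These were Igf2 (-2.30 ± 0.32, SE), Igfbp5 (-3.69 ± 0.21, SE) and Igfbp7 (-2.23 ± 0.15, SE), which were lower in positive cells, and Igfbp2 (0.83 ± 0.23, SE), which was higher. Igfbp2 lost this call without mouse 1 or 2, with adjusted p of 0.0737 and 0.063. Between regions 3 of 7 genes were called in negative and 2 of 7 in positive libraries, against 9.81% and 6.1% of all features. In negative libraries 2 were higher and 1 lower in the spinal cord (5.27% and 4.54% of features), and in positive ones 2 were higher and 0 lower (4.22% and 1.88%). Ranges did not overlap between regions for 4 of 7 genes in the negative and 3 of 7 in the positive gate, against 9.06% and 29.7% of features. These comparisons share libraries with each other, so their calls are not separate evidence.

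The rest of the pathway was described from a list of 44 genes for other receptors, proteases and inhibitors, adaptors and the kinase cascade below the receptor, of which 37 were tested. In the thalamus 3 were higher and 7 lower in positive cells, which is 27.0% of those tested, near the 25.2% of all features (11.6% higher, 13.6% lower). The spinal cord had 2 higher and 6 lower, which is 21.6%, near the 19.6% of all features (9.04% higher, 10.5% lower). The median log2 fold change of the list was -0.13 for the thalamus and -0.22 for the spinal cord, against 0.06 and 0.09 over all features. Htra1, the gene of a secreted protease that can cut IGF binding proteins, had the largest increase of the list in both regions on the log2(FPKM + 1) scale. It was at 115 ± 54.7 and 272 ± 35.1 FPKM in negative and positive thalamus libraries and at 78.8 ± 12.0 and 372 ± 53.0 FPKM in spinal cord cells (SD, n = 4). Its log2 fold changes were 1.34 ± 0.26 (SE; adjusted p = 0.00183) and 2.22 ± 0.26 (SE; adjusted p = 2.7e-05). Stc2, whose product inhibits a protease that releases IGFs, had means of 2.09 ± 1.37 and 5.95 ± 1.37 FPKM in negative and positive thalamus cells (SD, n = 4). In spinal cord cells it ran from 0 to 0.540 FPKM in the negative and from 1.77 to 4.69 FPKM in the positive gate, low levels at which that scale understates a change. It rose on the log2 scale by 1.27 ± 0.32 (SE; adjusted p = 0.0109) in the thalamus and by 1.61 ± 0.32 (SE; adjusted p = 0.00281) in the spinal cord. The insulin receptor gene Insr rose by 0.61 ± 0.17 (SE) on that scale in the thalamus, with an adjusted p of 0.0162, while its spinal cord value of 0.46 ± 0.17 (SE) had an adjusted p of 0.0703.

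The strongest decreases on this list were in genes of proteins that act inside the cell. Grb14, an adaptor that restrains the insulin receptor, had means of 15.7 ± 8.68 and 1.12 ± 0.719 FPKM in negative and positive thalamus cells and of 28.3 ± 10.9 and 1.29 ± 0.601 FPKM in spinal cord cells (SD, n = 4). Its log2 fold changes were -2.88 ± 0.40 (SE; adjusted p = 1.3e-04) and -3.63 ± 0.40 (SE; adjusted p = 1.5e-05). Grb10, a related adaptor, fell by 1.61 in the thalamus and by 1.75 in the spinal cord on the log2 scale (adjusted p = 0.0033 and 0.00203). Pik3r3, a regulatory subunit of phosphoinositide 3-kinase, was lower in positive cells of both regions, with log2 fold changes of -1.16 ± 0.27 (SE; adjusted p = 0.00595) in the thalamus and -2.84 ± 0.27 (SE; adjusted p = 3.2e-06) in the spinal cord. Its gate difference, spinal cord minus thalamus, was -1.68 ± 0.38 (SE; adjusted p = 0.0303). Eif4ebp2, a repressor of translation below the kinase mTOR, fell by 1.30 in the thalamus, with an adjusted p of 7.2e-04. Rictor, a subunit of the second mTOR complex, also had a lower gate difference in the spinal cord (-1.16 ± 0.24, SE; adjusted p = 0.0167).

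Between regions, 3 pathway genes were higher and 1 lower in negative spinal cord than in negative thalamus libraries, and 0 passed in either direction in positive libraries. The 4 are 10.8% of those tested, near the 9.81% of all features, and 6.1% of all features were called between positive libraries. The higher ones were Pik3r3 (1.06 ± 0.27, SE), the insulin receptor substrate gene Irs1 (0.98 ± 0.29, SE) and Rictor (0.88 ± 0.17, SE), and the lower one was Stc2 (-1.27 ± 0.32, SE), with adjusted p of 0.0202, 0.047, 0.00361 and 0.0217. Igf2r, whose receptor clears IGF2, had log2 fold changes of -0.08 ± 0.52 (SE) in the thalamus and -1.33 ± 0.52 (SE) in the spinal cord between the gates, with adjusted p of 0.928 and 0.0906. Its negative spinal cord libraries ran from 1.94 to 19.2 FPKM.

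For each tested gene the 3 protein-coding features with the most similar profile over the 16 libraries were found. Likeness was the distance between centred log2 profiles scaled to unit length, where 0 means the same shape. For Igfbp7 these were Bgn (0.176), a matrix proteoglycan gene, Nampt (0.199) and Mbp (0.260), a myelin protein gene and oligodendrocyte marker. Mbp was at 224 and 950.0 FPKM in negative thalamus and spinal cord libraries and at 29.9 and 67.3 FPKM in positive ones, as group means. For Igfbp5 they were Rtn1 (0.230), Shisal1 (0.242) and Map1b (0.257), and for Igfbp4 the receptor gene Cmklr1 (0.229) and the body-axis genes Hoxa7 (0.272) and Hoxd8 (0.287). Hoxa7 and Hoxd8 were at 0.0441 to 0.195 FPKM in both thalamus groups and at 23.5 to 29.6 FPKM in both spinal cord groups, as group means. Igf2 was closest to Atxn1 (0.311), the cilium gene Ccdc151 (0.315) and Ccdc180 (0.334). Igf1r was closest to Sept5 (0.320), Dusp3 (0.370) and Tor1aip2 (0.384). The nearest for Igfbp2 were Tmem198b (0.375), the synaptic scaffold gene Dlg4 (0.406) and Grina (0.415), and those for Igf1 were Bcar3 (0.528), Zfp335 (0.535) and Gpd1l (0.556). Among the 7 genes themselves Igfbp5 and Igfbp7 were the closest pair (0.546) and Igfbp2 and Igfbp5 the farthest (1.80).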

How the data were processed

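Sorted cells gave RNA (Qiagen micro kit) for amplified NuGEN libraries, per the labels. DESeq2, Cuffnorm, Cufflinks, FastQC, the aligners Bowtie2 2.2.3 and TopHat2 2.0.11 and the counter HTSeq 0.6.1p1 stand in the submitters' processing notes, with the build GRCm38. The authors deposited FPKM values for 39171 features, and how libraries were scaled to each other is not stated. The comparison table the authors deposited for 444 features holds group means, a log2 fold change and its error, a test score, a p-value with its adjusted form, and a mean normalized signal over libraries, of which the fold change and adjusted p of Igfbp5 are used. Depth is unknown, because the FPKM are estimates: each library held 85 to 115 values above 0 but under 1e-06, which no whole read gives. No 2 libraries were identical (0 pairs).

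From these values limma 3.58.1 in R 4.3.3 was fitted on log2(FPKM + 1) over all 16 libraries, with 1 coefficient per group and a trended prior, on the 16340 features that reached 1 FPKM in 4 or more libraries. P-values were adjusted by Benjamini-Hochberg over all of them for each of 6 comparisons, with a threshold of 0.05. The fit was also run on simulated normal values with independent libraries, equal spread in all groups and changes added in positive thalamus libraries only. That run cannot show how the fit handles mouse effects or spreads that differ between groups. The pathway genes named are at most 3 called in each direction of a comparison by size, besides Igf2r, Insr in the spinal cord, Pik3r3 in the thalamus and members of the marker lists, which were chosen after their values were seen. The genes, lists and tests were chosen with earlier results of these data known. The mouse number pairs libraries, since a number stands for 1 animal, per the labels. Group-centred values correlated with a mean r of 0.0358 over the 24 same-mouse pairs and of -0.0119 over the 72 other pairs of different groups. Replicates are separate mice. The 27 alternatives changed the pseudocount, the filter, the scaling, the groups fitted, the mouse block, or left out a mouse or a library. Positions are from GENCODE vM21 of GRCm38, promoters from RefSeq.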

Additional observations from a re-analysis of the deposited data

Results flagged for a closer look

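Igfbp6 in the positive spinal cord library of mouse 2, at 0.681 FPKM, stood apart from the other 3 libraries of its group, which were listed at 0. With the others at exactly 0, any value above 0 would have stood apart in this way, so the chance rate of about 1 in 20 groups does not apply to it. It was the 1 such value in 33 groups with any spread.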

How the results depend on the processing

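Of 1114 alternative values of the 42 log2 fold changes tested (7 genes in 6 comparisons), 1029 kept direction and side of the threshold, 32 lost and 20 gained a call, and 33 changed sign. None of the 17 called values changed sign (0 of 454). The calls of Igfbp4, Igfbp5 and Igfbp7, and of Igf2 in the thalamus and in the mean, held under each alternative run. With the mouse as a block, Igf2 in the spinal cord had an adjusted p of 0.0487, and the block changed no other call of the 7 genes. Scaling to a common sum outside the mitochondrial genome moved the median of all features to 0.26 for the thalamus gates and 0.15 for the spinal cord gates, and turned Igf1r to 0.18 in the thalamus and to -0.064 between regions in positive cells. A pseudocount of 0.1 turned the test of whether the Igfbp7 gate effect differed between regions, not called either way, from -0.10 to 0.030. A 5 FPKM filter left 271 features called for the difference, and fitting only the groups compared gave 353 between regions in negative and 4227 in positive libraries. That fit gives no value for the mean and the difference, which need all 4 groups. The cause of these changes was not tested.

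With 1 mouse or library left out, features called ran from 2249 to 4855 between thalamus gates, 1861 to 3906 between spinal cord gates, 129 to 659 for the difference, 976 to 1808 between negative and 368 to 1402 between positive groups. Called genes of the 7 ran from 2 to 5 in the spinal cord, 0 to 1 for the difference and 2 to 5 between negative groups. Log2 fold changes that crossed 0, none called, were those of Igf1r (-0.17 to 0.047), Igfbp2 (-0.049 to 0.64) and Igfbp4 (-0.066 to 0.22) in the thalamus. Igfbp4 ran from -0.036 to 0.094 in the spinal cord, -0.027 to 0.13 in the mean and -0.19 to 0.092 for the difference, and Igfbp7 from -0.34 to 0.049 for the difference. Between regions the ranges were -0.56 to 0.026 for Igfbp2 in negative cells, and in positive cells -0.14 to 0.34 for Igf2, -0.021 to 0.11 for Igf1r and -0.62 to 0.12 for Igfbp5. Further calls were gained without 1 mouse or library by Igf2 between spinal cord gates (0.0419 without mouse 1), Igf1 between negative groups (0.0134 and 0.02) and in the mean (0.0241), and Igf1r in the mean (0.0151 to 0.0319). Igf1r between negative groups gained one without mouse 1 (0.0411), without the negative thalamus library of mouse 3 (0.0391) or 4 (0.046), and with the 5 FPKM filter (0.0419).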
